A study of Mus musculus with 3 samples.

Results

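Thymocytes carrying transcripts of the γδ T-cell receptor (TCR) segments Tcrg-V6 or Trdv4 were examined in cultured mouse thymus. They were chosen on measured values of the same cells: at least 2 unique molecular identifiers (UMIs, the counted mRNA molecules) of both V segments together, at least 2 of Cd3d, Cd3e and Cd3g together, and at most 1 each of Rag1 and Epcam. Of 9349 cells assigned to a culture, 5557 met the Cd3 minimum and are called Cd3 cells. The V segment minimum left 269 of these, of which 24 were left out (12 exceeded the Rag1 limit, 14 the Epcam limit and 2 both), so 245 cells remained. Of the 245 cells, 176 came from organoid reaggregates and 69 from intact lobes.

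γδ T cells leave the fetal thymus in waves, each using its own pair of γ and δ V segments. The chain made with Tcrg-V6 is known for pairing with the chain made with Trdv4 in a fetal wave that takes up an interleukin 17 program and settles in mucosal and other tissues. Trdv4 is also the δ segment of the earlier wave that seeds the epidermis. The markers given for these cells beside the V segments were Trdc, the δ constant region, and Cd163l1, a scavenger receptor known from interleukin 17-producing γδ T cells.

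All cells came from wild-type cultures dissociated on culture day 13, with no treatment arm, and the mice were C57BL/6J. The organoid reaggregate fetal thymic organ cultures (ORFTOCs) combined thymic epithelial cells grown as organoids from late-gestation thymi, EpCAM-depleted cells of mid-gestation thymi and mouse embryonic fibroblasts. The fetal thymic organ cultures (FTOCs) were intact mid-gestation lobes in the same medium. This medium held the growth factor FGF7, with thiazovivin added for the first 2 days. No strain is stated for the fibroblasts, which were wild-type. For each, 2 cultures were mixed, labelled with 1 antibody barcode (hashtag) and run in 1 droplet lane, so each pool was 1 sample, no test between pools was possible, and all intervals (95%) cover counting error only. The median depth was 8676.5 UMIs per cell in the 176 ORFTOC cells and 8590 in the 69 FTOC cells, against 6225 and 2717 in the other Cd3 cells.

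Because the rule rests on transcripts of 2 V segments, the ends that distinguish them are shown. Tcrg-V6 lies at chr13:19190368-19190929 and Trdv4 at chr14:54075004-54075515 (both GRCm38.p6, RefSeq, annotated as V segments). The last 60 bases of each transcript from GENCODE vM39, in sense orientation, are given with capitals from the codon of the conserved cysteine, where the hypervariable junction begins.
Tcrg-V6: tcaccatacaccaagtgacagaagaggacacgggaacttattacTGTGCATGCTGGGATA
Trdv4: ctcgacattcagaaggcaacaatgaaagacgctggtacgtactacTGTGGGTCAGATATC
No other gene among 1326 TCR transcripts shared a run of 31 bases with either segment. At least 2 UMIs of these segments were found in 0 of 2210 epithelial cells (at least 2 Epcam UMIs, median 12771.5 UMIs) and in 0 of 164 macrophages (at least 5 C1q UMIs, median 18674.5 UMIs), which allows shares of up to 0.136% and 1.83% (here and below the limit of a share of 0 is 3 counts of the total). A single UMI was found in 3 and 1 of them.

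The 245 cells fell into 3 sets that differed in V segment, TCR and gene expression. Only 34 carried both segments, 125 carried Tcrg-V6 alone, and 86 carried Trdv4 alone. This split was made after the values had been seen. In the 34 co-detected cells the median was 4 Tcrg-V6 UMIs (highest 16) and 7.5 Trdv4 UMIs (highest 33). Tcrg-V6 only cells held a median of 5 Tcrg-V6 UMIs (highest 26). Trdv4 only cells held a median of 2 Trdv4 UMIs (highest 14), so the typical cell lay at the minimum of the rule.

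**Figure D1:**
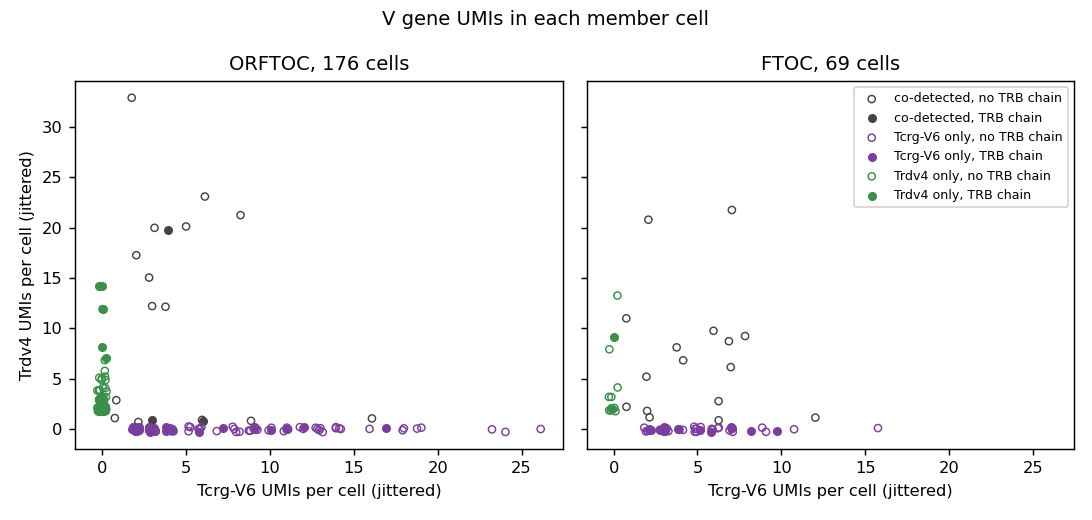
Tcrg-V6 UMIs (x axis) against Trdv4 UMIs (y axis) per cell for the 245 cells, 1 panel per pool, with points jittered and filled where a productive TRB chain was found. Cells lie along both axes, with 125 on the Tcrg-V6 axis, 86 on the Trdv4 axis and 34 between them.

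Cells of all 3 sets were present in both pools. The 245 cells were 6.52% of ORFTOC Cd3 cells (5.62 to 7.52) and 2.41% of FTOC Cd3 cells (1.88 to 3.05). ORFTOC gave 71.8% of them (65.8 to 77.4) and 48.6% of all Cd3 cells. FTOC Cd3 cells were shallower, and among cells with at least 3000 UMIs, a limit chosen after seeing the data, the shares were 9.26% and 4.77%. The difference depended on the hashtag rule: with at least 95% of hashtag UMIs in 1 hashtag the shares were 7.01% of ORFTOC Cd3 cells (6.02 to 8.11) and 6.90% of FTOC Cd3 cells (5.16 to 8.99), with overlapping intervals. The wide FTOC interval reflects that this limit kept far fewer FTOC Cd3 cells, so the similar shares refer to only a part of that pool. The pools differed least for co-detected cells, at 18 of 2699 Cd3 cells in ORFTOC (0.667%, 0.396 to 1.05) and 16 of 2858 in FTOC (0.560%, 0.320 to 0.908), whose intervals overlapped. Tcrg-V6 only cells were 3.11% (2.49 to 3.84) in ORFTOC and 1.43% (1.03 to 1.94) in FTOC. Trdv4 only cells were 2.74% (2.16 to 3.43) in ORFTOC and 0.420% (0.217 to 0.732) in FTOC, so 74 of the 86 came from ORFTOC.

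**Figure D2:**
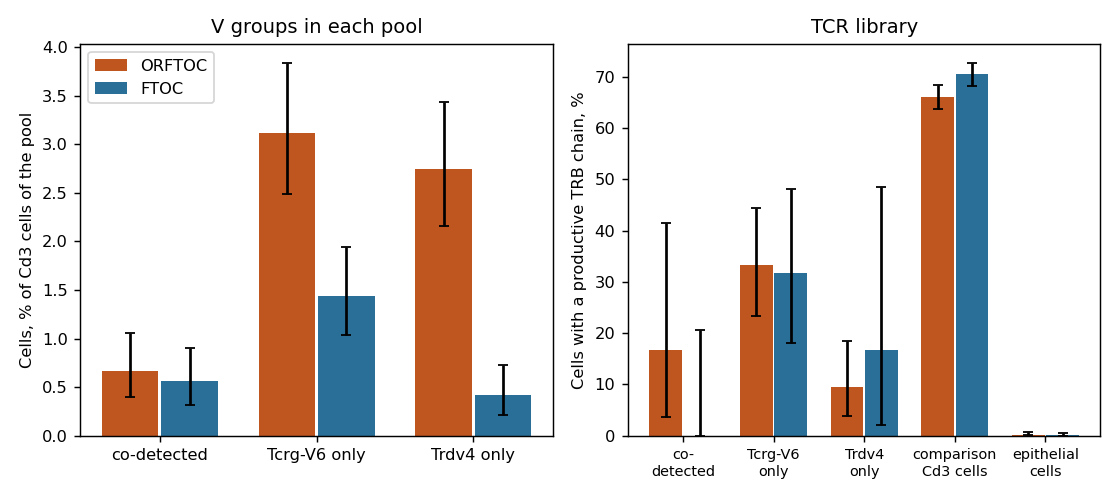
Share of each set among the Cd3 cells of its pool (left) and share of cells with a productive TRB chain in each set, in matched Cd3 cells ("comparison") and in epithelial cells (right), in percent, with 95% Clopper-Pearson intervals. Trdv4 only cells show the widest gap between pools, and Tcrg-V6 only cells the highest TRB share of the 3 sets.

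The TCR library was not used by the rule and gave an independent readout of αβ rearrangement. A productive TCRβ (TRB) chain was found in 53 of the 245 cells (21.6%, 16.6 to 27.3), in 74.4% of other Cd3 cells (73.2 to 75.6) and in 0.181% of epithelial cells. The shares of both pools had overlapping intervals, at 38 of 176 cells in ORFTOC (95% interval 15.8 to 28.4%) against 15 of 69 in FTOC (12.7 to 33.3%). It was 8.82% in co-detected cells (3 of 34, 1.86 to 23.7), 32.8% in Tcrg-V6 only cells (41 of 125, 24.7 to 41.8) and 10.5% in Trdv4 only cells (9 of 86, 4.90 to 18.9). A TCRα chain was found in 0, 18 and 3 cells of these sets. Removal of likely doublets within pools left the Tcrg-V6 only share at 32.3%. Tcrg-V6 only cells with a TRB chain held a median of 12631 UMIs and those without 11169. The part of doublets in this share was not tested.

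TRB chains were more frequent where fewer Tcrg-V6 UMIs were seen. Among Tcrg-V6 only cells with 2 to 4 UMIs, 28 of 53 carried a TRB chain (52.8%, 38.6 to 66.7), against 13 of 72 with 5 or more (18.1%, 9.98 to 28.9). Tcrg-V6 only cells with a TRB chain held Trdc at 139 CPM (UMIs per 1000000) and Trac, the α constant region, at 93.1 CPM, and those without one 323 and 43.4 CPM. Klrd1, a natural killer (NK) receptor chain, stood at 440 CPM with a TRB chain and 450 CPM without. Trdv4 only cells ran the other way, with a TRB chain in 3 of 70 cells with 2 to 4 UMIs (4.29%, 0.893 to 12.0) and in 6 of 16 with 5 or more (37.5%, 15.2 to 64.6).

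Some of these TRB chains recurred between cells of ORFTOC, and they are shown because they tie cells of the rule to each other and to Cd3 cells outside it. In ORFTOC, 9 of 30 TRB chains of Tcrg-V6 only cells were repeated in the pool (30%, 14.7 to 49.4), against 42.8% of chains of other Cd3 cells. In FTOC, 0 of 15 were (up to 20%), against 11.8%. All 6 repeated junctions with at least 1 cell of the rule came from ORFTOC. Capitals mark the bases past the point where under 25% of other chains with the same V segment (from the left) or J segment (from the right) share the run.
TRBV20 and TRBJ1-2, 3 cells, all Tcrg-V6 only: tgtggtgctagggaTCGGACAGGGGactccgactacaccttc
TRBV13-1 and TRBJ1-3, 3 cells, 2 of them Tcrg-V6 only: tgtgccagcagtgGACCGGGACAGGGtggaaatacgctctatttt
TRBV17 and TRBJ1-1, 4 cells, 2 of them Tcrg-V6 only: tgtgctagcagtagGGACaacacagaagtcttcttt
TRBV19 and TRBJ2-5, 2 cells, both Trdv4 only: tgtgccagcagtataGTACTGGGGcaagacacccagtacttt
TRBV20 and TRBJ2-3, 2 cells, 1 of them Tcrg-V6 only: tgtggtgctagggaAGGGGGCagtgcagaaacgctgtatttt
TRBV26 and TRBJ1-2, 2 cells, 1 of them Tcrg-V6 only: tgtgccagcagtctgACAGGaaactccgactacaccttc
Each of these junctions was read from 13 or more UMIs in every cell that carried it.

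The label of the cells as fetal γδ T cells was checked against Trdc and Cd163l1. For this and the comparisons below, other Cd3 cells were held to the same Rag1 and Epcam limits, which left 3150 matched Cd3 cells (1595 ORFTOC, 1555 FTOC). These were not free of γδ T cells, and 723 of the 3150 carried a Trdc UMI (23.0%). Trdc stood at 301 CPM (228 to 391) in ORFTOC and 253 CPM (173 to 358) in FTOC co-detected cells, and at 265 CPM (235 to 297) and 245 CPM (203 to 293) in Tcrg-V6 only cells. Matched Cd3 cells held 67.0 and 134 CPM. In Trdv4 only cells Trdc was 39.9 CPM (24.7 to 60.9) in ORFTOC, below matched Cd3 cells, and 136 CPM (75.9 to 224) in FTOC, level with them.

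Cd163l1 followed the same order. It stood at 823 CPM (698 to 965) in ORFTOC and 1109 CPM (933 to 1309) in FTOC co-detected cells, at 367 and 579 CPM in Tcrg-V6 only cells, at 158 and 262 CPM in Trdv4 only cells, and at 167 and 230 CPM in matched Cd3 cells. A Cd163l1 UMI was seen in 27 of 34 co-detected cells, 84 of 125 Tcrg-V6 only cells and 24 of 86 Trdv4 only cells. With cells thinned to 1000 UMIs the expected shares were 55.7%, 30.0% and 11.6%, against 10.9% in matched Cd3 cells and 0.215% in epithelial cells. Over matched Cd3 cells, the data thus bore out the label for co-detected cells. With cells bearing a TRB chain left out on both sides, their log2 ratio was 1.22 for Cd163l1 and 0.67 for Trdc. The data went against the label for Trdv4 only cells with 2 to 4 UMIs, at 28.6 CPM of Trdc and 102 CPM of Cd163l1. The 16 Trdv4 only cells with 5 or more UMIs held Trdc at 149 CPM (in 9 cells) and Cd163l1 at 421 CPM (in 11 cells). The set is called by its rule below. Tcrg-V6 only cells had both γδ markers, but 41 of the 125 also had a TRB chain.

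**Figure D3:**
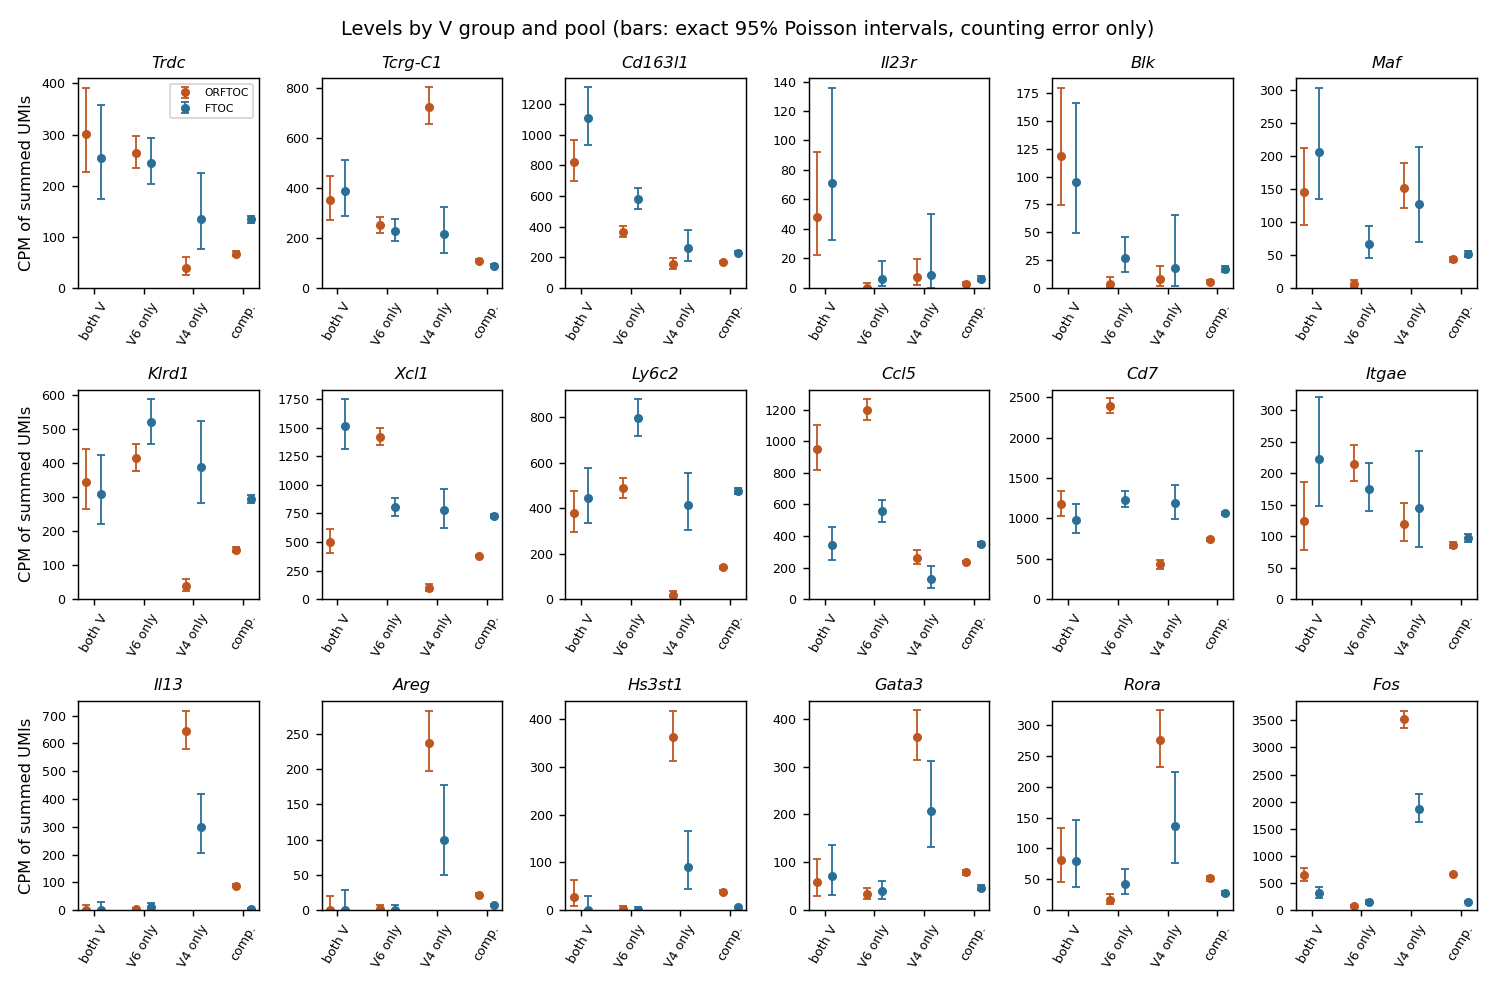
CPM of selected genes in each set and pool with exact 95% Poisson intervals, on a linear axis from 0 in each panel ("both V" are co-detected cells, "V6 only" and "V4 only" the cells with Tcrg-V6 or Trdv4 alone, "comp." the matched Cd3 cells). Trdc and Cd163l1 are highest in co-detected cells, Klrd1 in Tcrg-V6 only cells and Il13 in Trdv4 only cells.

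Tcrg-C1, the γ constant region behind Tcrg-V6 and its neighbouring V segments, was above matched Cd3 cells in all 3 sets. It stood at 725 CPM (654 to 801) in ORFTOC and 217 CPM (139 to 323) in FTOC Trdv4 only cells, at 350 and 388 CPM in co-detected cells and at 251 and 229 CPM in Tcrg-V6 only cells, against 110 and 88.7 CPM in matched Cd3 cells. The ORFTOC Trdv4 only cells thus stood above both other sets, and the FTOC ones did not. Tcrg-V6, which defines the sets, was left out to set the other V segments of that cluster against Tcrg-C1. These gave 0.103 UMIs per Tcrg-C1 UMI in Trdv4 only cells (42 of V, 406 of Tcrg-C1), 0.193 in co-detected cells, 0.236 in Tcrg-V6 only cells and 0.831 in matched Cd3 cells. Of the 68 Trdv4 only cells with a Tcrg-C1 UMI, 56 had none of these V segments (82.4%, 71.2 to 90.5), against 75% (65.6 to 83.0) in Tcrg-V6 only cells. The share was 65.5% (45.7 to 82.1) in co-detected cells and 48.1% (44.7 to 51.5) in matched Cd3 cells. Every Tcrg-V6 only and co-detected cell carried Tcrg-V6 by definition. Their shares therefore do not show Tcrg-C1 without any V segment of the cluster, whereas Trdv4 only cells held no Tcrg-V6 UMI.

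The CD3 genes were used by the rule, which asks for at least 2 of their UMIs together, so their levels in these cells are a description. A Cd3d UMI was seen in 21 of 86 Trdv4 only cells and in 123 of 125 Tcrg-V6 only cells, and cells without one could pass only through Cd3g or Cd3e. Cd3d stood at 249 CPM in ORFTOC and 651 CPM in FTOC Trdv4 only cells, against 826 and 1055 CPM in matched Cd3 cells, which passed the same minimum. Of all 128 cells with at least 2 Trdv4 UMIs, 12 fell short of 2 Cd3 UMIs, whereas 0 of 174 cells with at least 2 Tcrg-V6 UMIs did.

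Other V segments were seen beside those of the rule. Trgv2, a segment of another γ cluster, had a UMI in 86.4% of Tcrg-V6 only cells (79.1 to 91.9), in 70.6% of co-detected cells, in 23.3% of Trdv4 only cells and in 31% of matched Cd3 cells. Depth differed, at a median of 11372 UMIs per cell in Tcrg-V6 only, 6036.5 in Trdv4 only and 5867.5 in matched Cd3 cells. By level, Trgv2 stood at 336 CPM in ORFTOC and 381 CPM in FTOC Tcrg-V6 only cells, against 168 and 228 CPM in matched Cd3 cells. Among other δ segments, Trdv5 stood at 185 CPM in ORFTOC and 53.6 CPM in FTOC Tcrg-V6 only cells, against 24.0 and 46.5 CPM in matched Cd3 cells, so its excess was in ORFTOC. A Trdv5 UMI was seen in 27.2% of Tcrg-V6 only cells and in 5.33% of matched Cd3 cells. Trdv2-2 stood at 33.4 and 148 CPM against 19.1 and 44.9 CPM, with a UMI in 21.6% of Tcrg-V6 only cells and 8.13% of matched Cd3 cells.

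Each set was next compared with matched Cd3 cells of its own pools over all genes with enough UMIs. Values are log2 ratios of the observed UMIs over those expected at the matched cells' level in each pool, and describe the cells without a test. In co-detected cells 73 of 3241 genes (2.25%) were more than 2-fold higher and 160 (4.94%) lower. In Tcrg-V6 only cells 30 of 2992 genes (1%) were higher and 79 (2.64%) lower, and in Trdv4 only cells 250 of 3264 (7.66%) and 184 (5.64%).

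Co-detected cells held the interleukin 17 program. Of 30 genes listed for it, 20 could be compared, of which 16 were more than 2-fold higher and 0 lower, with a median log2 ratio of 1.86 against -0.03 over all genes compared. Blk, a Src-family kinase of these cells, was at 118 CPM in ORFTOC and 95 CPM in FTOC against 5.70 and 17.1 CPM in matched cells (log2 3.40). Il23r, the interleukin 23 receptor, was at 48.4 CPM (22.1 to 91.9) and 71.3 CPM (32.6 to 135) against 3.01 and 6.03 CPM. Its expected count was under 3 UMIs, so the log2 ratio of at least 2.58 is a lower bound. Maf, a transcription factor of the program, was at 145 and 206 CPM against 43.2 and 51.3 CPM. Ltb4r1, a leukotriene receptor (log2 2.87), Ccr2, a chemokine receptor (2.33), and Cd163l1 (2.29) were higher as well. With TRB-bearing cells left out on both sides, Maf and some other genes of the list fell short of 2-fold, as given below.

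Il17a itself, the signature cytokine, was split between the pools. It gave 24 UMIs (129 CPM, 82.7 to 192) in ORFTOC and 1 UMI (7.92 CPM, 0.201 to 44.1) in FTOC co-detected cells, and 0 UMIs in both other sets. Matched Cd3 cells held 5.55 CPM in ORFTOC and 43.9 CPM in FTOC. Co-detected cells were thus above them in ORFTOC and below them in FTOC, and the place of Il17a among the 16 higher genes rested on ORFTOC. Most cells with these transcripts lay outside the rule: of 35 Cd3 cells with at least 2 Il17a UMIs 2 were among the 245, and of 115 with an Il23r UMI 18 were. Of 8 genes compared of the αβ lineage 6 were more than 2-fold lower in co-detected cells, as were 7 of 12 cell division genes.

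Tcrg-V6 only cells held cytotoxic and chemokine genes above matched Cd3 cells, in part shared with co-detected cells. Of 19 genes listed for the type 1 program 11 could be compared, with 8 more than 2-fold higher and 1 lower (Gzma), and a median of 1.26 against -0.05 over all genes compared. In co-detected cells 1 of 10 was higher (Ccl5) and 2 lower, with a median of 0.40. Klrd1 stood at 414 CPM (376 to 454) in ORFTOC and 519 CPM (457 to 587) in FTOC against 145 and 294 CPM, and at 344 and 309 CPM in co-detected cells. Xcl1, a chemokine for cross-presenting dendritic cells, stood at 1424 and 803 CPM against 379 and 730 CPM, so most of its excess was in ORFTOC, whereas co-detected cells held 500.4 and 1521 CPM. Ccl5, a chemokine of effector lymphocytes, stood at 1201 and 556 CPM against 235 and 347 CPM (log2 1.89), and at 952 and 341 CPM in co-detected cells. A Ccl5 UMI was seen in 62.4% of Tcrg-V6 only cells, and also in 21.1% of epithelial cells. A Klrd1 UMI was seen in 79.2% of Tcrg-V6 only cells (71.0 to 85.9) and in 0.362% of epithelial cells, and in 32.1% of the former when thinned to 1000 UMIs.

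Further genes of the same set were Ly6c2, a surface marker of activated T cells, at 487 and 795 CPM against 139 and 477 CPM, and Cd7, a surface protein of T and NK cells, at 2394 and 1232 CPM against 739 and 1060 CPM. Itgae, the integrin that binds epithelial E-cadherin, had a log2 ratio of 1.19 and the granzyme Gzmb 1.31. Gzmb was also higher in Trdv4 only cells (log2 1.86), at 843 CPM in ORFTOC against 616 CPM in Tcrg-V6 only cells. The interleukin 17 list had 2 of 7 genes higher (Cd163l1 and S100a4) and 1 lower (Ramp1). The 6 NK markers listed summed to 53.8 CPM (40.9 to 69.6) in ORFTOC and 45.3 CPM (28.4 to 68.6) in FTOC Tcrg-V6 only cells, against 27.1 and 47.8 CPM in matched Cd3 cells. Of these markers Ncr1, Klra8 and Klra4 were at 0 UMIs in Tcrg-V6 only cells, and Klra8 and Klra4 in matched Cd3 cells too. The part of NK cells in these values was not tested.

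Trdv4 only cells held type 2 cytokines, which were nearly absent from both other sets. Il13 stood at 645 CPM (578 to 718) in the 74 ORFTOC cells and 299 CPM (205 to 419) in the 12 FTOC cells, against 88.0 and 5.93 CPM in matched Cd3 cells. Tcrg-V6 only cells held 2.78 and 12.4 CPM, and co-detected cells had 0 Il13 UMIs. An Il13 UMI was seen in 43 of 86 Trdv4 only cells (50%, 39.0 to 61.0, and 28.4% when thinned to 1000 UMIs), and in 1.54% of epithelial cells. Il4 stood at 161 and 36.2 CPM in Trdv4 only cells against 20 and 1.01 CPM. Areg, an epidermal growth factor family ligand, stood at 237 and 99.5 CPM against 22.2 and 7.44 CPM, and Hs3st1, a heparan sulphate sulphotransferase, at 362 and 90.5 CPM against 38.5 and 5.93 CPM.

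Transcription factors and receptors known from type 2 lymphocytes, several of them shared with other innate lymphocytes, were higher in the same cells. Gata3, required for type 2 lymphocytes, stood at 362 CPM (313 to 418) and 208 CPM (132 to 312) against 79.1 and 47.3 CPM. Rora stood at 275 and 136 CPM against 51.5 and 27.7 CPM. Il1rl1, the interleukin 33 receptor (log2 3.01), Nmur1, a neuromedin U receptor (3.40), Rxrg, a retinoid receptor (3.60), and Kit, the stem cell factor receptor (2.15), were higher too. The 5 genes compared of 6 markers listed for type 2 innate lymphoid cells were all more than 2-fold higher (median 3.01 against -0.09 over all genes compared). The summed level of the 6 was 1683 CPM in ORFTOC and 760 CPM in FTOC, against 237 and 69.3 CPM in matched cells. Tcrg-V6 only cells held 41.8 and 51.5 CPM and co-detected cells 91.5 and 71.3 CPM. In FTOC the 12 Trdv4 only cells gave 84 of these UMIs, with 38.1% in 1 cell and at least 5 in 4 cells. The interleukin 17 list had 7 of 12 genes more than 2-fold higher in Trdv4 only cells as well (Rora, Maf, Il7r, Cxcr6, Cd44, Ltb4r1 and Lmna, median 1.30) and 0 lower. Of 3 genes compared of the type 3 innate lymphoid markers 2 were higher, Tnfsf11 and Kit, and the 8 listed summed to 1235 CPM in ORFTOC and 751 CPM in FTOC against 665 and 810 CPM. Il22, a cytokine of type 3 cells, stood at 110 CPM in ORFTOC against 9.33 CPM in matched cells and at 0 UMIs in FTOC. αβ lineage genes were lower, with Cd8b1 at a log2 ratio of -3.21, Cd8a at -2.81 and Trac at -2.23.

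Immediate early genes, which also respond to tissue dissociation, moved with this set. All 5 that could be compared were more than 2-fold higher in Trdv4 only cells (median 2.49). Fos stood at 3516 CPM in ORFTOC and 1864 CPM in FTOC against 659 and 159 CPM, while Tcrg-V6 only cells held 71.5 and 152 CPM. The part of dissociation in the values of these cells was not tested.

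**Figure D4:**
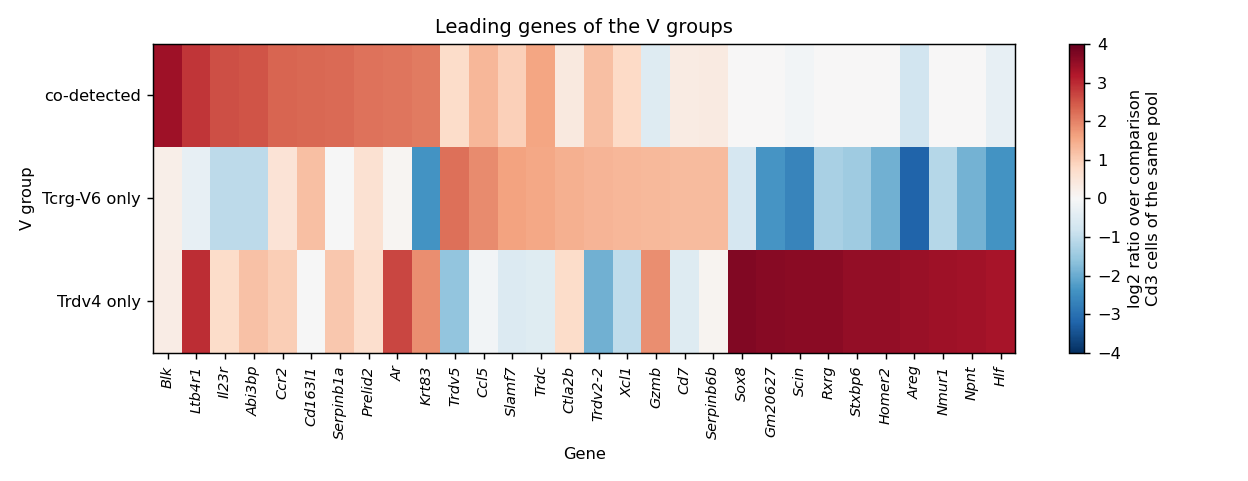
Colour map of the log2 ratio over matched Cd3 cells of the same pool, with the 3 sets as rows and the 10 leading genes of each set as columns (red higher, blue lower, counts and expected counts under 3 set to 3). The genes that lead Trdv4 only cells are near or below 0 in both other sets, while Ltb4r1 is high in co-detected (2.87) and Trdv4 only cells (2.94).

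Genes picked from the type 2 and cytotoxic profiles, with their values in view, were also counted cell by cell. At least 2 UMIs of Il13, Areg, Hs3st1 or Il4 were found in 59 of 86 Trdv4 only cells (68.6%, 57.7 to 78.2), 4 of 125 Tcrg-V6 only cells and 1 of 34 co-detected cells. At least 2 UMIs of Klrd1, Xcl1 or Ly6c2 were found in 105 of 125 Tcrg-V6 only cells (84%, 76.4 to 89.9), 15 of 34 co-detected cells and 11 of 86 Trdv4 only cells. Within Trdv4 only cells 31 held at least 2 Il13 UMIs, 9 at least 2 Klrd1 UMIs and 0 both, which allows a share of up to 3.49%.

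Seen from the cytokine, Trdv4 transcripts were common among Il13-expressing cells. Of 200 cells of the whole data set with at least 2 Il13 UMIs, 88 carried a Trdv4 UMI (44%, 37.0 to 51.2) and 2 a Tcrg-V6 UMI (1%, 0.121 to 3.57). Matched Cd3 cells, which leave out the cells of the rule, carried a Trdv4 UMI in 3.97% and a Tcrg-V6 UMI in 1.71%. The Trdv4 only cells with a TRB chain were not of this kind. Their 9 cells gave 1 Il13 UMI (8.17 CPM), against 722 CPM in the 77 cells without a TRB chain.

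The 245 cells were also compared as a whole, in each pool by itself. Against all other Cd3 cells, 37 of 3029 genes (1.22%) were more than 2-fold higher in both pools and 93 (3.07%) lower. Among the higher genes were Tcrg-C1 (log2 2.26 in ORFTOC, 1.95 in FTOC), Cxcr6, a chemokine receptor of tissue-resident lymphocytes (1.91 and 2.0), Fgl2, a secreted fibrinogen-like protein (1.84 and 1.72), Pxdc1 (1.64 and 1.89), Cd163l1 (1.55 and 1.90) and S100a4, a calcium-binding protein (1.47 and 1.59). Il7r, the interleukin 7 receptor (1.33 and 1.39), the costimulator Icos (1.42 and 1.47) and Itgae (1.57 and 1.40) followed. Rora was at 1.31 and 1.48. With Tcrg-V6 as the sole criterion, Rora (-0.89), Pxdc1 (-1.46) and Icos (-0.50) were lower in ORFTOC. With at least 95% of hashtag UMIs in 1 hashtag, 8 genes were higher in both pools.

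**Figure D5:**
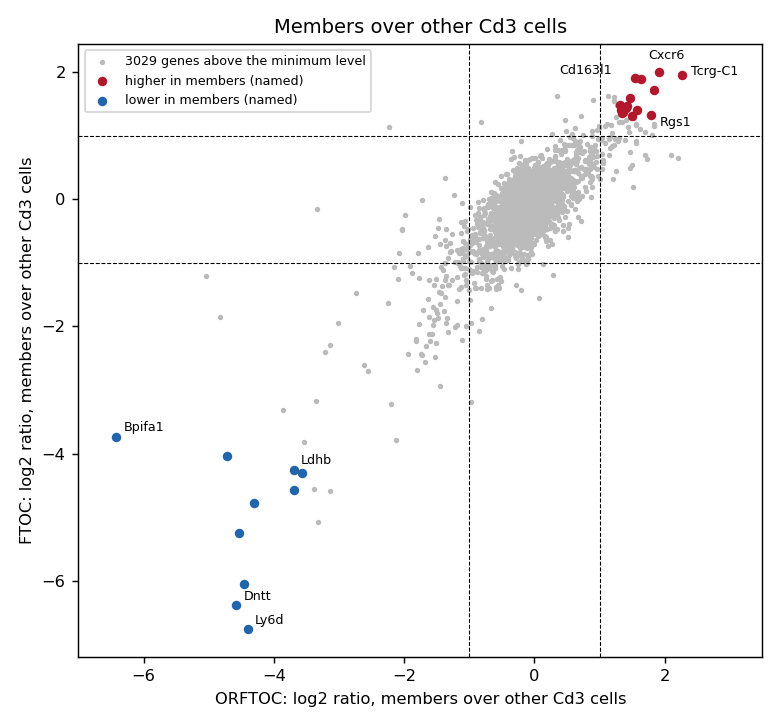
Log2 ratio of the 245 cells over other Cd3 cells for 3029 genes in ORFTOC (x axis) and FTOC (y axis), with dashed lines at 2-fold, the named genes in red (higher) and blue (lower), and counts under 3 set to 3. Tcrg-C1, Cxcr6 and Cd163l1 lie beyond the dashed lines on the upper right, Dntt and Ly6d on the lower left.

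The lower genes included Dntt, the nucleotide-adding enzyme of V(D)J joining, at 8.94 CPM in ORFTOC and 2.77 CPM in FTOC against 213 and 347 CPM, and Ly6d, at 15.1 CPM in ORFTOC against 319 CPM, with 1 UMI in FTOC against 450 CPM. Others were Cd74, the invariant chain of MHC class II, at 64.2 and 37.4 CPM against 1272 and 1026 CPM, and the keratin Krt18 (-4.71 and -4.05). The rule limits Rag1 and Epcam in these cells only. Against matched Cd3 cells the counts dropped to 10 of 2880 genes higher (0.347%) and 39 lower (1.35%).

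Cells with a TRB chain were scarcer among the 245 cells than in the comparison. When cells with a TRB chain were left out on both sides, an alternative chosen after seeing the data, 2 genes stayed more than 2-fold higher in both pools, Tcrg-C1 (1.44 and 1.01) and Ltb4r1 (1.05 and 1.63). Over the 1001 matched cells without a TRB chain, all 10 leading genes of co-detected and of Trdv4 only cells stayed more than 2-fold higher, but only 3 of the 10 of Tcrg-V6 only cells did (Trdv5, Ccl5 and Trdv2-2). In co-detected cells Blk was at 2.40, Ltb4r1 at 1.75, Cd163l1 at 1.22 and Trdc at 0.67. Of the 16 interleukin 17 genes higher before, Maf (0.94), Il7r (0.86), Cxcr6 (0.88) and Cd44 (0.68) fell short of 2-fold. So did Il17a (0.93), Tmem176b (0.99) and S100a4 (0.42), and the others stayed past it. In Tcrg-V6 only cells Ccl5 was at 1.29, while Trdc at 0.96, Klrd1 at 0.69, Xcl1 at 0.53 and Cd163l1 at 0.36 fell short of 2-fold. In Trdv4 only cells Areg was at 2.17, Hs3st1 at 2.0 and Il13 at 1.78, while Cd163l1 was at -1.89.

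Between the pools, 35 of 3032 genes (1.15%) were more than 2-fold higher in ORFTOC and 26 (0.858%) more than 2-fold lower. Those higher in ORFTOC were led by genes of the Trdv4 only cells: Scin, an actin-severing protein, at 62.6 CPM against 4.15 CPM (log2 3.91), Hs3st1 (3.01), the transcription factor Hlf (2.68), Kit (2.13) and Il13, at 192 CPM against 54.0 CPM (1.83). The 3.91 for Scin has an interval of 2.33 to 6.21, since FTOC held 3 of its UMIs. Within Tcrg-V6 only cells these genes were near absent from both pools, with 2 Scin UMIs in ORFTOC and 0 in FTOC, and 3 and 6 Il13 UMIs. There, 21 of 3028 genes were higher in ORFTOC (0.694%) and 67 lower (2.21%). Scin and Il13 were also higher in ORFTOC among other Cd3 cells (2.88 and 2.97).

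Other pool differences were present within Tcrg-V6 only cells too. Gzma, a granzyme, stood at 124 CPM in ORFTOC and 23.5 CPM in FTOC (log2 2.40 over all 245 cells, 2.12 within Tcrg-V6 only cells, and 0.19 in other Cd3 cells). Cxcl10, an interferon-induced chemokine, was lower in ORFTOC at 45.8 against 313 CPM (-2.77, and -3.27 within Tcrg-V6 only cells), though only 16 and 10 cells held a UMI. Trdv2-2 (-2.09), Ccr2 (-1.56) and Ifit3, an interferon-induced gene (-1.50), were lower as well.

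The sexes of the embryos differed between pools. No FTOC cell of the 69 held a UMI of 4 Y-linked genes and 62 held Xist, whereas in ORFTOC 74 held Y-linked UMIs without Xist and 63 Xist without Y-linked UMIs. Xist was at -1.45 between the pools. Within the 63 ORFTOC and 62 FTOC cells with Xist and no Y-linked UMIs, an alternative chosen after seeing the data, Xist was at -0.09, 50 genes were more than 2-fold higher in ORFTOC and 42 lower. Scin (2.94), Hs3st1 (3.03), Gzma (2.16) and Cxcl10 (-2.62) were past 2-fold there too, and Il13 was at 1.26, Ccr2 at -0.83 and Ifit3 at -0.73.

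In the 245 cells macrophage, epithelial and mesenchymal markers were low apart from single cells. Innate lymphoid markers were not. Those of type 2 summed to 530 CPM in ORFTOC and 163 CPM in FTOC, against 237 and 69.3 CPM in matched Cd3 cells. Those of type 3 summed to 842 and 926 CPM against 665 and 810 CPM. The 7 macrophage markers summed to 40.8 CPM in ORFTOC and 69.2 CPM in FTOC, against 989 and 129 CPM in matched Cd3 cells, from C1qa, C1qb, C1qc and Lyz2, with Adgre1, Csf1r and Mrc1 at 0 UMIs. Of 4 B cell markers only Cd79b gave UMIs, at 9.50 and 20.8 CPM against 6.55 and 11.9 CPM. Mesenchymal markers summed to 6.14 CPM in ORFTOC and 493 CPM in FTOC, where 1 co-detected cell held all 109 Col3a1 UMIs. In all, 10 of the 245 cells held at least 5 UMIs of macrophage, epithelial or mesenchymal markers.

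At the border of the rule, 179 matched Cd3 cells had 1 V segment UMI and 68 cells of the rule had 2. The former held a TRB chain in 25.7%, Trdc at 130 CPM and Il13 at 376 CPM, and the latter 20.6%, 76.1 CPM and 400 CPM. Cells with 5 or more UMIs held Trdc at 280 CPM and Il13 at 28.6 CPM, and cells with none a TRB chain in 70.8% and Il13 at 30.4 CPM.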

How the data were processed

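Gene expression, TCR and hashtag libraries (3 samples) came from 1 lane with cells of 2 pools. Per their methods the authors aligned reads with Cell Ranger 6.1.2 to mm10. The header of the deposited matrix names another major version, and the effect of this was not tested. The deposited matrix held unfiltered UMI counts for 705161 barcodes and 32285 genes. Each TCR contig in the deposited lists carries its UMI counts. Hashtag HTO_1 marked FTOC and HTO_2 ORFTOC, as both the labels and the deposited hashtag table state.

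Cells needed at least 600 genes (10910 barcodes), 0.4 to 10% mitochondrial UMIs (10245) and at least 80% of at least 10 hashtag UMIs in 1 hashtag (9349). The hashtag step dropped 896 barcodes, all with hashtag UMIs of both pools. Doublets within a pool were kept, and an alternative removed 922 cells. UMI sums per set and pool were expressed as UMIs per 1000000 (CPM), their intervals being exact Poisson and those of shares Clopper-Pearson (95%). Genes needed 50 CPM and a UMI in 10% of cells of the higher group (in comparisons of the V sets, also at least 10 UMIs), and a count under 3 was set to 3. Past 2-fold means a point ratio above 2, with no test. Each pool was 1 sample of 2 mixed cultures, so no replicate was left out and no p-value is given. PCR duplicates were collapsed by UMI. Python 3.11.15, numpy 2.4.6, scipy 1.17.1, pandas 2.3.3, R 4.3.3 and Seurat 5.3.0 (HTODemux, an alternative) were used, and the ratio code was tested on simulated data.

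The cells, the 19 gene lists (186 genes, 185 in the matrix) and the rules were chosen with earlier results of these data known. Named genes were those of the lists, the 15 highest and 10 lowest ratios over other Cd3 cells that ran the same way in both pools, ranked by the ratio nearer to 1, and the 10 highest and 10 lowest ratios between pools. The V sets, their leading genes (10 higher and 5 lower) and the genes named for them were picked with their values in view. All 8 genes looked up had a RefSeq location in GRCm38.p6.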

Additional observations from a re-analysis of the deposited data

Results flagged for a closer look

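Mfge8, which encodes a secreted protein that bridges dying cells to phagocytes, went opposite ways in the pools when the cells with Tcrg-V6 or Trdv4 were compared with other Cd3 cells. Its log2 ratio was -2.23 (-2.70 to -1.79) in ORFTOC, from 42 UMIs in 33 cells, and 1.14 (0.786 to 1.47) in FTOC, from 79 UMIs in 12 cells. The difference was not tested, since each pool was 1 sample. In FTOC 84.8% of the UMIs lay in 1 cell. Without the 4 FTOC cells with at least 5 UMIs of macrophage, epithelial or mesenchymal markers, its level there was 15 CPM in place of 109 CPM. Gsn, an actin-severing protein, went from 105 to 40.6 CPM and Ctsl, a lysosomal protease, from 96.9 to 30.1 CPM in FTOC under the same step.

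The unfiltered TCR contigs, which the comparisons do not use, held 148 δ-chain contigs although the library targets α and β chains. Of these, 6 used TRDV4, and 4 of the 6 lay in cells of the rule (1.63% of 245 cells), 3 in co-detected cells and 1 in a Trdv4 only cell. Other Cd3 cells held 1 (0.0188% of 5312). None of the 6 had a J segment or was marked productive.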

How the results depend on the processing

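Values of the kind shown here can move with the V segment minimum, the hashtag rule and the level at which genes are compared. With at least 1 V UMI the cells were 11.3% of ORFTOC and 4.13% of FTOC Cd3 cells, with 61 genes higher and 15 lower between pools. With at least 4 they were 3.48% and 1.57%, with 62 genes lower between pools, and TRB shares of 20% in Tcrg-V6 only and 25% in Trdv4 only cells. With Tcrg-V6 as the sole criterion the ORFTOC share was 64.5%, the cells were 3.71% of ORFTOC Cd3 cells, 28.4% held a TRB chain, and 14 genes were higher and 60 lower between pools. With Trdv4 as the sole criterion they were 3.15% and 0.875% of Cd3 cells, 9.09% held a TRB chain, 105 genes were higher than in other Cd3 cells, and 190 were higher and 188 lower between pools. With a hashtag share of at least 95%, the FTOC share was 6.90%, 8 genes were higher and 55 lower than in other Cd3 cells, 68 were higher between pools and 19 higher in Tcrg-V6 only cells. With at least 1000 genes the shares were 7.53% and 3.07%, and with at least 3000 UMIs (chosen after seeing the data) 9.26% and 4.77%. In cells with Xist and no Y-linked UMIs (also chosen then), 42 genes were lower between pools.

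Without TRB-bearing cells the ORFTOC share of Cd3 cells was 5.11%, 57 genes were higher than in other Cd3 cells, 70 higher and 52 lower between pools, and 307 lower in Trdv4 only cells. With such cells left out of the comparison too, 2 genes were higher and 49 lower, and in co-detected cells 44 and 94, with 10 higher in Tcrg-V6 only cells. Matched comparison cells gave 10 higher and 39 lower. At a minimum of 20 CPM the counts over other Cd3 cells were 66 higher and 156 lower and between pools 124 and 113, and at 100 CPM 24 and 55, and 17 and 9. These follow from fewer or more genes compared.

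Directions turned for a few named genes. Over other Cd3 cells in ORFTOC, with Tcrg-V6 alone, they were Pxdc1 (-1.46), Icos (-0.50), Samsn1 (-0.43) and Rora (-0.89), and in FTOC with Trdv4 alone Cxcr3 (-1.45). Between pools with Tcrg-V6 alone they were Hs3st1 (-0.66), Ptpn13 (-0.59), Il13 (-2.07), Ifitm2 (-0.21), Mfge8 (0.15) and Gsn (0.24), with Trdv4 alone Ifit3 (0.86), and with at least 1 V UMI Mfge8 (0.12), Ctsl (0.046) and Gsn (0.035). Mfge8 also turned with at least 4 Cd3 UMIs (0.44) and without cells bearing other markers (0.70). The cause of these changes was not tested. Scin and Hlf gave no ratio with Tcrg-V6 alone, since neither pool held more than 3 UMIs. Under the alternatives, 202 shares and counts stayed within their interval or within 1.5 times and 50 did not. Of 24 shares of cells with a UMI, 22 moved when thinned to 1000 UMIs. With 176 and 69 cells from 1 sample each, differences between cultures could not be separated from those between pools. No paired analysis was possible because each pool was 1 sample and the labels carry no replicate numbers.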
